A study of Mus musculus with 18 samples.

Results

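Transcripts of 45 genes that build and run mitosis were followed over the day in the mouse distal colon. The genes were a given list, grouped here into 8 roles: the cyclin-dependent kinase engine, mitotic kinases and their partners, the spindle checkpoint, the kinetochore, the spindle, cytokinesis, mitotic exit and chromosome structure. For each gene the probe set with its symbol and the highest mean signal was used. A probe set was found for 44 of the 45 genes (of 18193 genes in the series), and none carried the symbol Ccnb1. Of these, 42 passed the filter on low signal and were tested among 12870 genes, while Cdc25c and Ndc80 did not. The series asked which transcripts of this tissue cycle over the day, with Affymetrix arrays of total RNA from colon taken shortly above the anus. The mice had free access to food and 12 h of light and 12 h of dark, and strain, sex and age are not given in the sources used here. Collection was at 8am, 12pm, 4pm, 8pm, 12am and 4am, which fell 1, 5, 9, 13, 17 and 21 h after lights on, with 3 arrays per time, a to c. Nothing in the labels tells whether these 3 were separate mice, so p-values cover only the spread between samples, which may be technical.

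In the colon, stem cells and their progeny divide in the lower part of the crypts, and the cells that leave this zone differentiate and no longer divide. Many transcripts of mitosis accumulate in the G2 phase and fall again after division, so their level in a tissue can reflect how many cells are near mitosis. A complex of a B-type cyclin and the kinase Cdk1 drives entry, Aurora and Polo-like kinases shape the spindle, the checkpoint waits until every kinetochore is attached, and the anaphase-promoting complex then ends mitosis. In whole tissue, fewer dividing cells and less mRNA per dividing cell cannot be told apart.

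Array quality differed within 2 of the times. For the Gapdh control, the signal at the 3′ end over that at the 5′ end, a ratio that grows when RNA is degraded or copied incompletely, was 34.3 in 4pm b, 36.0 in 4am a and 18.2 in 4am b, against 0.746 to 2.33 in the other 15 arrays. All 9 epithelial markers looked for were present, with a lowest signal of 985 in any array. Signals are the deposited linear values, and differences are of log2(signal + 16), so those of weak genes are understated.

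Mitotic transcripts were higher at 8am, 1 h after lights on, than at 8pm, 1 h after lights off. All 42 tested genes had a higher mean at 8am, where 44.4% of all genes did, and their median difference was 1.09 on the log2 scale or 2.13-fold, against -0.03 for all genes. In 38 of the 42 genes all 3 arrays at 8am lay above all 3 at 8pm, compared with 5.63% of all genes. The exceptions were Cenpa, Tpx2, Ube2c and Pttg1. By limma, 37 genes had an unadjusted p under 0.05, all of them higher at 8am, against a background of 2.88% of all genes in either direction and 1.17% higher. None of the 42 passed after Benjamini-Hochberg adjustment over all genes, where the lowest adjusted p was 0.128, and 1 gene of 12870 passed (0.00777%). Without the 3 arrays of high Gapdh ratio, none of which is from 8am or 8pm, the same differences stood against a smaller spread and 8 of the 42 passed, among 18 of 12855 genes. These were Bub1b, Bub1, Cdc20, Knl1, Nuf2, Ncaph, Birc5 and Mki67, with adjusted p between 0.0280 and 0.0475 in limma.

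The mean over the 42 genes followed the same course. It was 9.93, 9.45 and 10.0005 on the log2 scale in 8am a, b and c. At 12pm the 3 arrays gave 9.08, 9.45 and 8.83, followed by 9.28, 9.20 and 8.93 at 4pm. In the dark it was 8.76, 8.56 and 8.79 at 8pm and 8.81, 8.83 and 8.85 at 12am, and towards the next lights on, at 4am, it was 9.32, 9.15 and 9.11. The 3 arrays at 8am were thus the 3 highest of the 18, although 8am b and 12pm b were equal when rounded, and 8am b was the lowest of its time in 35 of the 42 genes. The 6 arrays at 8pm and 12am were at most 8.85, and those at 4am lay between the 2 groups. In 8am a and c all 42 genes were above their own median over the 18 arrays and in 8am b 37 were, against 10, 2 and 7 at 8pm. Of the 42 genes, 32 had their highest time mean at 8am, where 10.9% of all genes did. The lowest was at 8pm in 21 and at 12am in 12, against 1524 and 2685 of all 12870 genes.

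**Figure D1:**
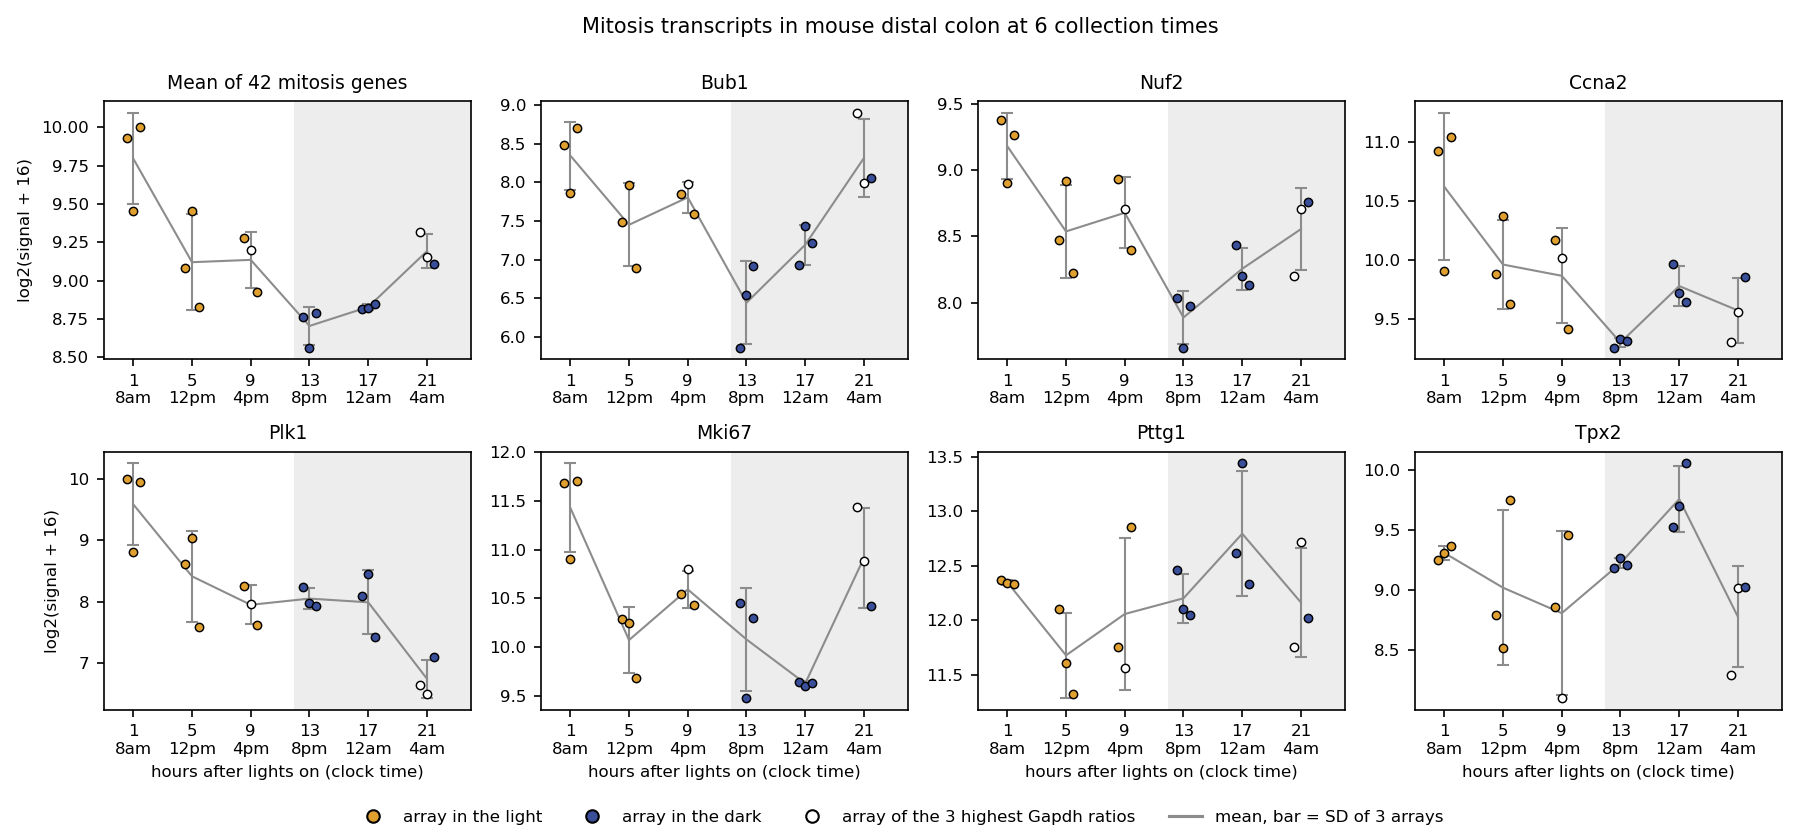
Each panel plots log2(signal + 16) against hours after lights on, with 1 point per array, the mean of 3 arrays and a bar for their SD, grey for the dark part of the day and white points for the 3 arrays of highest Gapdh ratio. The mean over 42 genes was highest at 8am and lowest at 8pm, and Plk1 was lowest at 4am. Pttg1 and Tpx2 were highest at 12am by the probe set of highest mean signal.

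**Figure D2:**
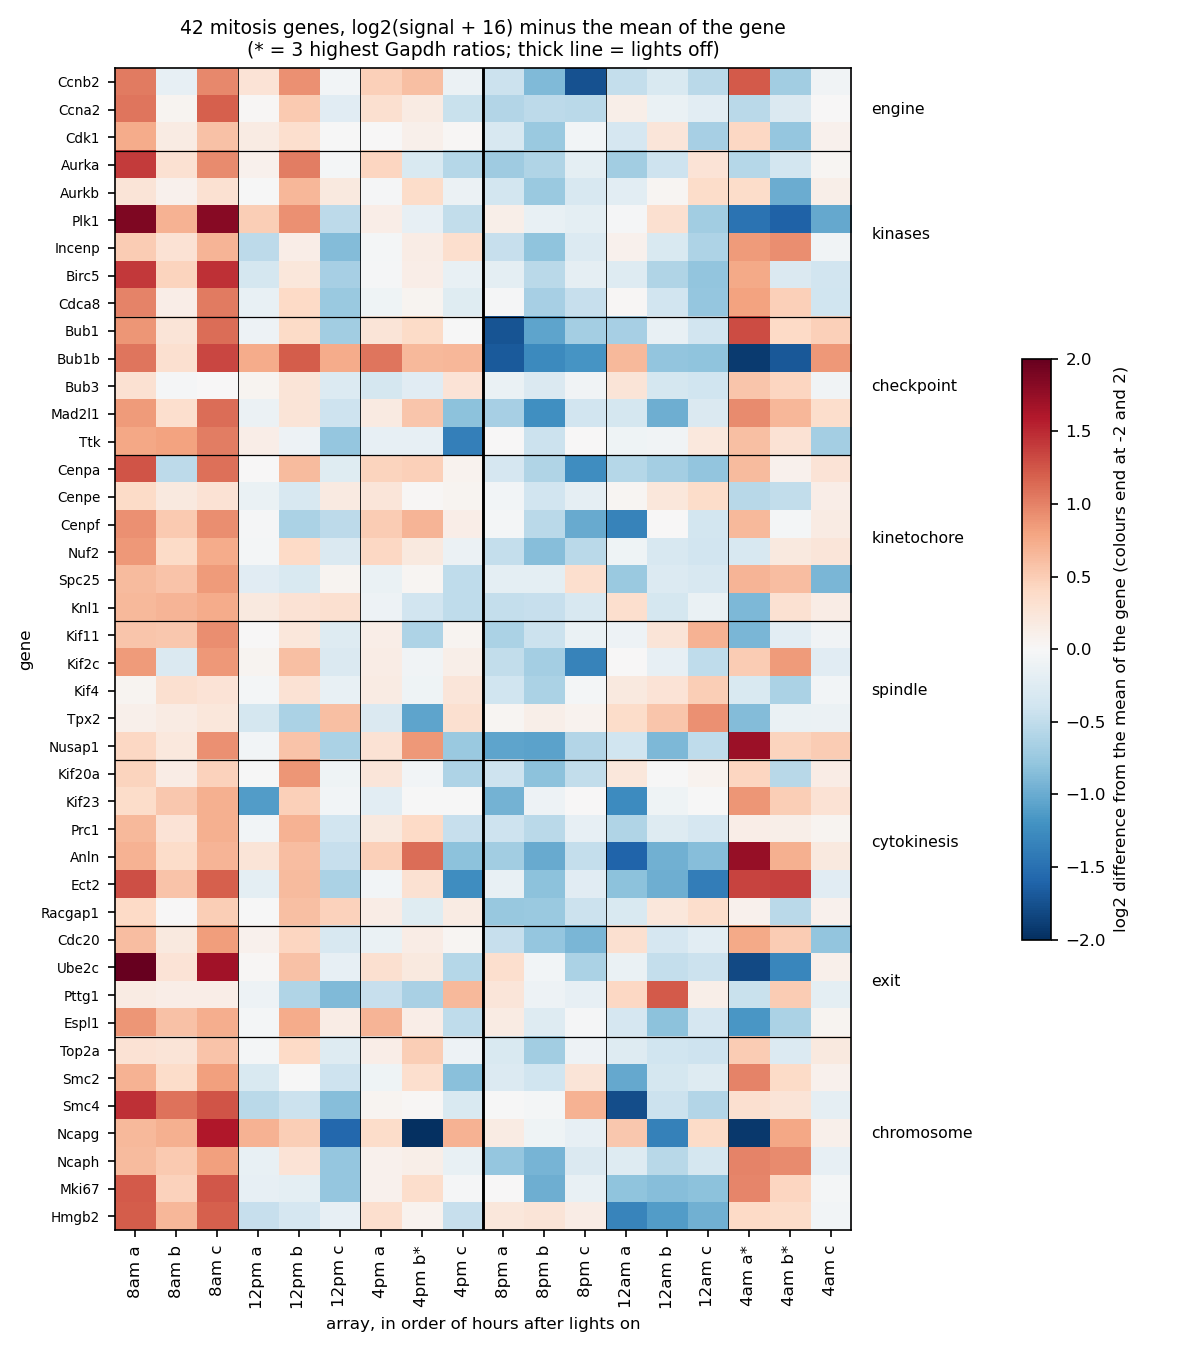
Rows are the 42 tested genes by role, columns the 18 arrays by time, and colour is log2(signal + 16) minus the mean of the gene. The columns of 8am are red for nearly every gene and those of 8pm and 12am mostly blue, and in 4am a and b some genes were high (Bub1, Nusap1, Anln, Ect2) and others low (Plk1, Bub1b, Ube2c).

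The promoters of the listed genes were searched for 2 short motifs known to control mitotic genes. As the genes were listed for their role in mitosis, the shares below are no test of their level at 8am. TTTGAA is the core of the cell cycle homology region, bound by complexes that repress mitotic genes in resting cells and activate them in G2. CCAAT is the box bound by the factor NF-Y. RefSeq windows of build GRCm38.p6, which run from 250 bases before to 50 after a transcription start, were at hand for 38 of the 45 genes. On either strand, TTTGAA was in a window of 29 of the 38 genes (76.3%) and of 20.2% of 27025 genes, and CCAAT in 28 (73.7%) against 41.1%. Both were in 25 (65.8%) against 7.97%. The pair shared bases in 1 of 89 combinations of matches within a window. A match is a stretch of letters and not a measured site. The stretches from 150 bases before to 30 after the start are printed for the genes among the 6 with the lowest p at 8am against 8pm that have an entry, with every match in capitals (as ATTGG or TTCAAA where it lies on the other strand). Bub1 (chr2:127831830-127832009, minus strand) held CCAAT at 2 places, and Mki67 (chr7:135716350-135716529, minus strand) held TTTGAA at 2 places and CCAAT at 1.
Bub1: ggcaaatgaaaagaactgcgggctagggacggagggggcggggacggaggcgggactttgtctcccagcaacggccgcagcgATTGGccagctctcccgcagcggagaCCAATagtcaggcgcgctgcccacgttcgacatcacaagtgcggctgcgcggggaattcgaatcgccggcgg
Mki67: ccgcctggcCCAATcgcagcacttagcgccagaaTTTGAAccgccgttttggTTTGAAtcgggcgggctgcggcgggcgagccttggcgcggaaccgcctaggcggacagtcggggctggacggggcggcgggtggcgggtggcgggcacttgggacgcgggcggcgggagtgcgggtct

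Nuf2 (chr1:169531435-169531614, minus strand), Mad2l1 (chr6:66535071-66535250, plus strand) and Ncaph (chr2:127133925-127134104, minus strand) held neither motif in the window, although they were among the genes with the lowest p.
Nuf2: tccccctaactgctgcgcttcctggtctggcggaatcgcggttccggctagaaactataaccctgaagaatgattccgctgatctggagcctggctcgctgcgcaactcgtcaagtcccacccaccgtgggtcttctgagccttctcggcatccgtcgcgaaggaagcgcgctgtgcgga
Mad2l1: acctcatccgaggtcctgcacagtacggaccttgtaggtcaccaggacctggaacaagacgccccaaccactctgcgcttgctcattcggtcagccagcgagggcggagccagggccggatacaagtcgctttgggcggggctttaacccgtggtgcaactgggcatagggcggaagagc
Ncaph: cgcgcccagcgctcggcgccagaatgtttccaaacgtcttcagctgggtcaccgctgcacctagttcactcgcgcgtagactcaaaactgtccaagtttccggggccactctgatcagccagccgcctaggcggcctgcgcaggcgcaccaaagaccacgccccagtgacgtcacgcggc

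For contrast, the next genes by p at 8am against 8pm whose printed stretch holds both motifs are Cenpf (chr1:189688057-189688236, minus strand), Cdc20 (chr4:118437314-118437493, minus strand) and Kif11 (chr19:37376232-37376411, plus strand), a choice made after the motifs were searched. In Cdc20 and Kif11 the TTTGAA match lies 18 and 19 bases before the start, with a CCAAT match 53 and 45 bases before it.
Cenpf: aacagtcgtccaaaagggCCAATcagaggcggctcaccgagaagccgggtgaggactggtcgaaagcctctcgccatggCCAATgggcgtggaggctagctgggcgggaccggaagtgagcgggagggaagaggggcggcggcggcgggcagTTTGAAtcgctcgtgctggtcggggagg
Cdc20: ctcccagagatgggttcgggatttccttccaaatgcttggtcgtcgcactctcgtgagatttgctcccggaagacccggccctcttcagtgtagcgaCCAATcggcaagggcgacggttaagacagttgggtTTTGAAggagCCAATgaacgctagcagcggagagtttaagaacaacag
Kif11: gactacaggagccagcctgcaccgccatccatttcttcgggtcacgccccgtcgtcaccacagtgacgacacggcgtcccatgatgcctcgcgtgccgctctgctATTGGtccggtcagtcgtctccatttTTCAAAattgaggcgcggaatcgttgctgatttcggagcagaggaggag

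The engine of mitosis was higher at 8am in each of its 3 tested genes. Ccna2 encodes cyclin A2, which acts in S phase and up to early mitosis. Its signal was 1926, 941 and 2094 at 8am, against 596, 629 and 618 at 8pm. All 3 arrays at 8am lay above all 3 at 8pm, and the fit gave a 2.50-fold difference (log2 1.32 ± 0.29, SE, n = 3 each, adjusted p = 0.314). Ccnb2, a B-type cyclin that activates Cdk1, had signals of 1479, 635 and 1399 at 8am and of 524, 380 and 201 at 8pm. Here 8am b stood well below the other two arrays of its time and still above all of 8pm, with a 3.10-fold difference (log2 1.63 ± 0.45, adjusted p = 0.530 in limma). The kinase Cdk1 itself differed by 0.86. Cdc25c, a phosphatase that switches Cdk1 on, lay below the filter and had signals of 159, 77.0 and 61.5 at 8am, against 19.5, 46.5 and 27.0 at 8pm.

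Among mitotic kinases and their partners, the 6 genes differed by 0.69 (Aurkb) to 1.53 (Plk1), each with an unadjusted p under 0.05 (2.88% of all genes). Plk1, the Polo-like kinase needed for spindle assembly and for mitotic exit, had signals of 1002, 436 and 972 at 8am and of 288, 236 and 229 at 8pm. The groups did not overlap, with a 2.89-fold difference (log2 1.53 ± 0.38, adjusted p = 0.366). Birc5, or survivin, the subunit that brings Aurora kinase B to centromeres, had signals of 2366, 1197 and 2437 at 8am and of 763, 595 and 774 at 8pm. Its 2.66-fold difference had an SE of 0.33 on the log2 scale. Aurka, which acts at spindle poles, differed by 1.39, and the other two subunits of the Aurora kinase B complex, Incenp and Cdca8, by 1.00 and 1.11.

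The spindle checkpoint held both the genes with the largest differences and a gene with almost none. Bub1, a checkpoint kinase at the kinetochore, had signals of 341, 216 and 402 at 8am, against 42.2, 77.4 and 105 at 8pm. Even the lowest 8am array stood far above the highest 8pm array, and the fitted difference was 3.75-fold (log2 1.91 ± 0.35, adjusted p = 0.128). Mad2l1, which holds back Cdc20 until kinetochores are attached, had signals of 1146, 794 and 1379 at 8am and of 391, 260 and 478 at 8pm. That is a 2.87-fold difference without overlap (log2 1.52 ± 0.34). Bub1b, the partner of Mad2l1 in the checkpoint complex, showed the largest difference of the 42 genes, 4.88-fold (log2 2.29 ± 0.56), and the kinase Ttk differed by 1.01. Bub3, which carries Bub1 and Bub1b to kinetochores and also acts outside mitosis, had signals of 3195, 2539 and 2582 at 8am and of 2344, 2110 and 2456 at 8pm. Its arrays also did not overlap, but the difference was 1.20-fold (log2 0.26 ± 0.24, adjusted p = 1.00 in limma).

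At the kinetochore, 5 of 6 tested genes had an unadjusted p under 0.05 (2.88% of all genes). Nuf2, a subunit of the complex that grips microtubule ends, had signals of 649.8, 461 and 597 at 8am and of 246, 187 and 235 at 8pm. The arrays were well apart, and the 2.45-fold difference had the second lowest p of the 42 genes (log2 1.29 ± 0.24, adjusted p = 0.128). Its partner Ndc80, below the filter, had signals of 106, 84.6 and 109 at 8am, against 15.2, 14.2 and 75.7 at 8pm. Knl1, the scaffold on which Bub1 docks, had signals of 533, 541 and 566 at 8am and of 234, 237 and 263 at 8pm, with little spread in either group (log2 1.11 ± 0.27, 2.16-fold). Cenpa, the histone that marks centromeres, had signals of 941, 262 and 843 at 8am and of 298, 246 and 153 at 8pm, so that 8am b fell among the 8pm arrays. Spc25, of the same complex as Nuf2, differed by 0.70 (adjusted p = 1.00 in limma).

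Of the spindle genes, 4 of 5 had an unadjusted p under 0.05 (2.88% of all genes). Kif11, the motor that pushes spindle poles apart, had signals of 500, 493 and 652 at 8am and of 211, 245 and 306 at 8pm (log2 1.07 ± 0.28, 2.10-fold). Kif2c, which takes apart microtubules at wrongly attached kinetochores, had signals of 569, 248 and 575 at 8am and of 214, 185 and 112 at 8pm. The groups did not overlap in either gene, and the Kif2c difference was 2.49-fold (log2 1.32 ± 0.35). Tpx2, which activates Aurora kinase A on the spindle, had signals of 592, 620 and 645 at 8am, against 567, 602 and 577 at 8pm. Its groups overlapped, and the difference of 0.09 ± 0.34 had the highest p of the 42 genes (adjusted p = 1.00 in limma).

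The 6 cytokinesis genes each had an unadjusted p under 0.05 (2.88% of all genes), with differences of 0.88 (Kif23) to 1.42 (Ect2). Racgap1, which with Kif23 forms the core of the central spindle, had signals of 637, 482 and 685 at 8am and of 278, 280 and 354 at 8pm (log2 0.94 ± 0.25, 1.92-fold). Prc1, which bundles the microtubules between the separating chromosomes, had signals of 883, 678 and 928 at 8am and of 415, 383 and 498 at 8pm (log2 0.91 ± 0.27, 1.88-fold). Neither gene had overlapping arrays. Anln, a scaffold of the contractile ring, differed by 1.31, and Ect2, which activates the small GTPase RhoA at the division plane, was the gene at the upper end of this role.

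In mitotic exit, 3 of 4 genes had an unadjusted p under 0.05 (2.88% of all genes). Cdc20, the activator held back by the checkpoint, had signals of 2225, 1672 and 2610 at 8am and of 1047, 840 and 761 at 8pm, with no overlap (log2 1.27 ± 0.33, 2.41-fold). Ube2c, the ubiquitin-conjugating enzyme of that complex, had signals of 3102, 894 and 2397 at 8am, against 925, 704 and 469 at 8pm. The groups overlapped, since 8am b lay below 8pm a while 8am a and c lay far above, and the difference was 2.75-fold (log2 1.46 ± 0.47, adjusted p = 0.780 in limma). Espl1, or separase, which cuts cohesin at anaphase, differed by 0.78. Pttg1, or securin, which inhibits separase, had signals of 5299, 5170 and 5161 at 8am and of 5613, 4377 and 4229 at 8pm. Its groups overlapped, and the difference was 0.15 ± 0.34 (adjusted p = 1.00 in limma).

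Among genes of chromosome structure, 6 of 7 had an unadjusted p under 0.05 (2.88% of all genes). Mki67, which coats mitotic chromosomes and marks dividing cells, had signals of 3256, 1904 and 3316 at 8am and of 1389, 699 and 1248 at 8pm (log2 1.35 ± 0.30, 2.55-fold). Ncaph, a subunit of condensin I, had signals of 1045, 969 and 1195 at 8am and of 387, 346 and 544 at 8pm (log2 1.32 ± 0.30, 2.49-fold). Both were without overlap between groups. The other condensin genes, Smc2, Smc4 and Ncapg, differed by 0.76, 1.05 and 1.02, and Ncapg varied so much at other times that its SE was 0.78. Top2a, which untangles DNA, differed by 0.74 and Hmgb2, a chromatin protein, by 0.82.

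**Figure D3:**
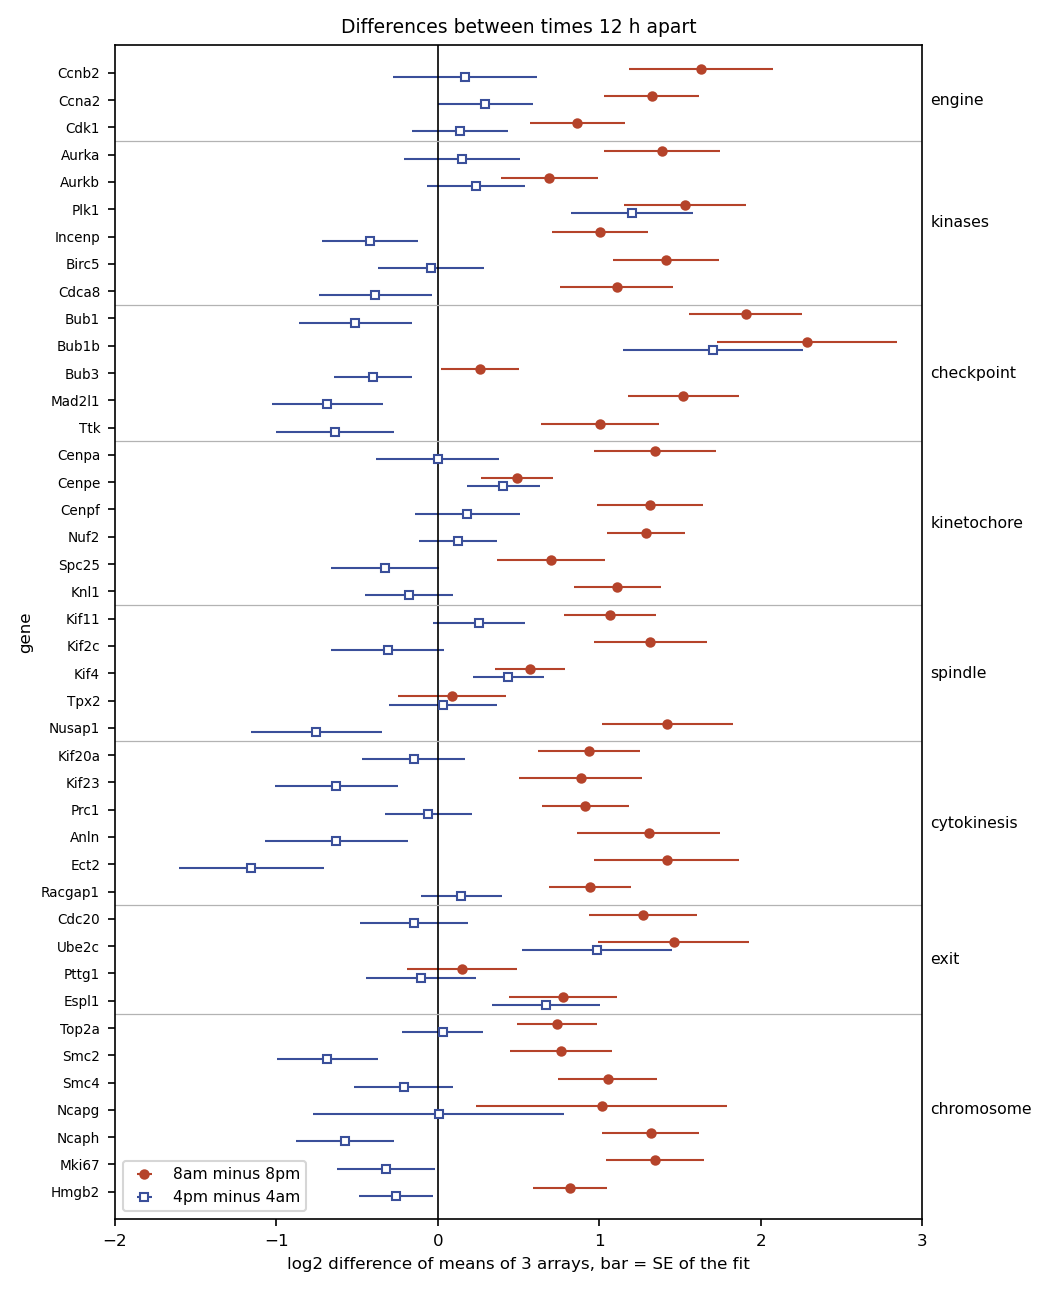
For each of the 42 genes, by role, filled circles give the log2 difference 8am minus 8pm and open squares 4pm minus 4am, with the SE of the fit as a bar. All circles lie right of 0, between 0.09 (Tpx2) and 2.29 (Bub1b), while the squares lie on both sides, between -1.15 (Ect2) and 1.70 (Bub1b).

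The other times 12 h apart had smaller median differences. At 12pm against 12am, 35 of the 42 genes had a higher mean at 12pm (46.2% of all genes), with a median difference of 0.29. Without 12pm b 27 were higher and the median was 0.13, and without 12pm c it was 0.47. In limma 6 were higher and 2 lower at an unadjusted p under 0.05 (8.11% of all genes, 3.51% higher and 4.6% lower), and none passed after adjustment (0%). The arrays did not overlap in 9 genes that were higher (11%) and 1 that was lower (10.3%). The 6 higher at an unadjusted p under 0.05 were Anln (1.27 ± 0.44), Bub1b (1.22 ± 0.56), Ect2 (1.00 ± 0.45), Cenpa (0.82 ± 0.38), Hmgb2 (0.81 ± 0.23) and Espl1 (0.78 ± 0.33). The 2 lower at that threshold were Pttg1 and Tpx2, each by the probe set of highest mean signal. Pttg1 had signals of 4377, 3114 and 2556 at 12pm, against 6263, 11100 and 5139 at 12am, with no overlap (-1.12 ± 0.34, adjusted p = 0.523 in limma). Tpx2 had signals of 427, 350 and 845 at 12pm and of 719, 815 and 1049 at 12am (-0.74 ± 0.34, adjusted p = 0.594 in limma), and 12pm c overlapped with 12am. Other probe sets of both genes differed in sign. Those of Tpx2 gave -1.01, 0.13 and 1.24, the last with signals of 186, 214 and 134 at 12pm and of 106, 57.5 and 42.6 at 12am, without overlap, and those of Pttg1 gave 0.34 and -0.56. The count of 8 was 2 without 12pm b (4.98% of all genes), 4 without 12pm a (5.66%) or 12am b (6.74%) and 5 without 12am c (6.79%).

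At 4pm against 4am the genes went both ways, with 18 of 42 higher at 4pm (58.9% of all genes) and a median of -0.08, against 0.12 for all genes. The sign of this median depended on the processing: it was 0.03 with the mean over probe sets, where 23 of 42 were higher, 0.01 with array quality weights or without the 3 arrays of high Gapdh ratio, and -0.14 without 4pm b. In limma 3 were higher and 2 lower at an unadjusted p under 0.05, against 19.7% of all genes, 13.8% higher and 5.93% lower, and none passed after adjustment (0.0466%). The arrays did not overlap in 1 gene that was higher (5.57%) and 2 that were lower, Bub1 and Kif23 (2.27%). Plk1 had signals of 290, 234 and 182 at 4pm and of 84.1, 74.7 and 121 at 4am, without overlap (1.20 ± 0.38, adjusted p = 0.158 in limma). In the other 4 genes the arrays overlapped. Bub1b had signals of 399.7, 293 and 299.5 at 4pm, against 36.9, 45.4 and 346 at 4am (1.70 ± 0.56), and Ube2c of 916, 846 and 490 at 4pm, against 199, 289 and 785 at 4am (0.99 ± 0.47). Ect2 had signals of 793, 1023 and 340 at 4pm and of 2116, 2150 and 699 at 4am (-1.15 ± 0.45), and Smc2 of 651, 876 and 380 at 4pm, against 1385, 908 and 737 at 4am (-0.68 ± 0.31). In Bub1b, Ube2c and Ect2, 4am c lay apart from 4am a and b, the 2 arrays with high Gapdh ratios, and in Smc2 4am a lay above both others. The part of RNA quality in this was not tested. The count of 5 was 17 without 4am c, where the share of all genes was 43%, and 8 without 4pm b, where it was 27.8%. Leaving out 12pm a, 4pm a, 8pm a, 4am a or 4am b gave 3, where the share was 11.8% to 18.1%.

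The difference between 8am and 8pm was itself larger than that between 4pm and 4am in all 42 genes (39.4% of all genes), with a median excess of 1.15 on the log2 scale, against -0.17 for all genes. It was larger in 36 genes without 4am c, 39 without 8pm b and 40 without the 3 arrays of high Gapdh ratio, all from 4pm or 4am. The contrast uses the same 8am and 8pm arrays again. At an unadjusted p under 0.05 in limma 28 genes showed a larger difference between 8am and 8pm (11% of all genes in either direction, 3.24% in the same direction), and none passed after adjustment (0.0932%). Bub1 (2.42 ± 0.50), Mad2l1 (2.20 ± 0.48) and Ncaph (1.89 ± 0.43) had the lowest p, and their lowest adjusted p was 0.112. Ncaph had signals of 1354 and 1308 in 4am a and b, with high Gapdh ratios, against 600 in 4am c. For Plk1, Bub1b and Ube2c the excess was 0.33 ± 0.54, 0.58 ± 0.79 and 0.47 ± 0.66, within its error. Averaged over the lit times, 40 of the 42 genes were higher than averaged over the dark ones (51.4% of all genes), with a median of 0.42. This comparison contains the 8am and 8pm arrays, and 25 genes were higher at an unadjusted p under 0.05 (6.21% of all genes in either direction, 3.82% higher), none after adjustment in limma.

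A difference between any of the 6 times was found after adjustment in 19 of the 42 genes, against 17% of all genes, and 32 had an unadjusted p under 0.05, against 42.3%. The 19 were Ccna2, Plk1, Incenp, Birc5, Bub1, Bub1b, Mad2l1, Cenpa, Cenpf, Nuf2, Knl1, Nusap1, Anln, Ect2, Ube2c, Smc4, Ncaph, Mki67 and Hmgb2. Hmgb2 had the lowest adjusted p, 0.00103 in limma, with log2 means of 11.93 ± 0.31, 10.58 ± 0.15, 10.89 ± 0.41, 11.12 ± 0.06, 9.78 ± 0.18 and 11.15 ± 0.25 (SD, n = 3) in order of time. Its low point was thus 12am and not 8pm. Smc4 had the next lowest adjusted p, 0.00481, and was also lowest at 12am. Plk1, with an adjusted p of 0.00590, had means of 9.59 ± 0.66 at 8am and 6.75 ± 0.31 at 4am, the widest span of the 42 genes. The highest mean was at 12pm in Aurkb and Racgap1 (9.42% of all genes) and at 12am in Kif4, Tpx2 and Pttg1 (27%). For Tpx2 and Pttg1 this holds for the probe set of highest mean signal. The next set of Tpx2 was also high at 12am (537, 1026 and 1058), but its weakest was low there (106, 57.5 and 42.6). The next set of Pttg1 had 1360, 1601 and 1643 at 12pm, against 1404, 1073 and 1165 at 12am. Incenp, Bub3, Nusap1, Kif23 and Anln had their highest mean at 4am (26.9%). At 4am the 3 arrays of these genes differed, and a and b had high Gapdh ratios. Signals in 4am a, b and c were 1195, 1270 and 624 for Incenp and 3783, 3455 and 2443 for Bub3. They were 1774, 732 and 765 for Nusap1, 765, 584 and 506 for Kif23 and 990, 474 and 328 for Anln. The part of RNA quality in these maxima was not tested. The count of 19 depended on single arrays: it was 5 without 8am a or 8am c, 9, 8 and 12 without 8pm a, b and c, and 11 without 12am b or 12am c, where 6.25% to 8.34% of all genes passed, and 33 without 4am c, where 53.8% did.

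A 24 h cosine curve described the course in part. In 36 of the 42 genes its peak fell in the 6 h after lights on, where 17.6% of all genes peaked, with a median amplitude of 0.46 on the log2 scale against 0.19 for all genes. At an unadjusted p under 0.05 in limma 27 genes passed (3.95% of all genes), and none did after adjustment (0.0389%), with a lowest adjusted p of 0.604. Bub1b had the largest amplitude, 1.09 ± 0.27, with a peak at 4.41 h, followed by Ect2 with 0.83 ± 0.22 at 0.792 h and Anln with 0.78 ± 0.22 at 1.93 h. The 6 genes with a peak elsewhere were Ttk, Incenp, Bub3 and Kif23, at 22.8 to 23.98 h and so shortly before lights on, and Tpx2 and Pttg1, in the dark at 17.3 and 17.8 h by the probe set of highest mean signal. Without 8am a or 8am c the count of 27 was 17 or 16 (3.75% or 3.31% of all genes).

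**Figure D4:**
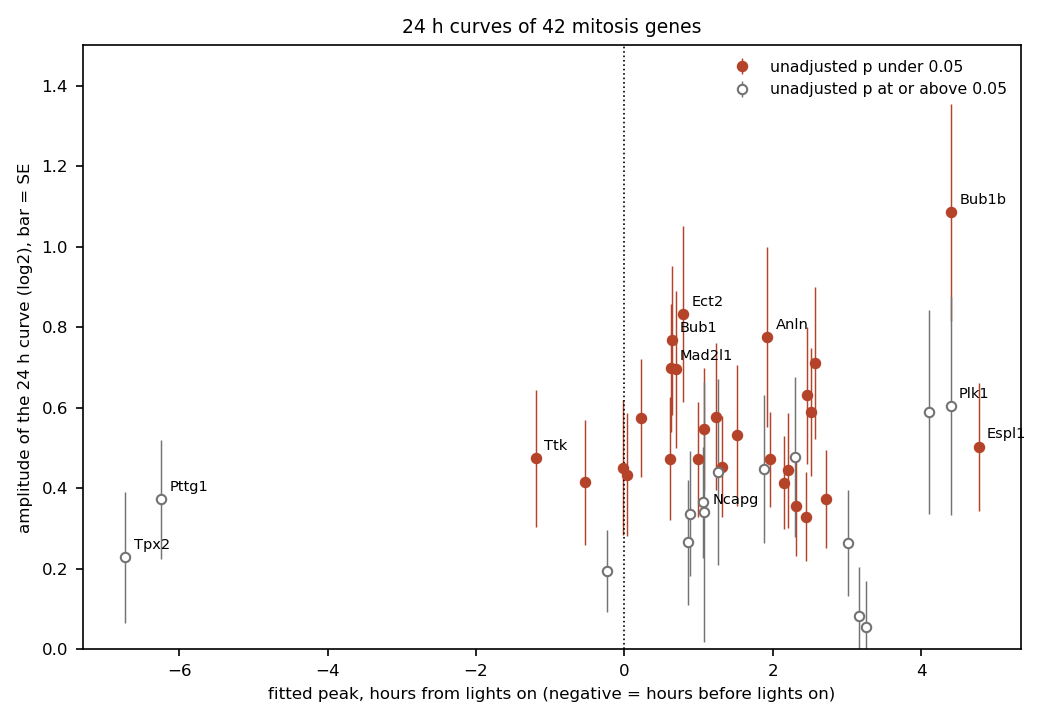
Each point is 1 of the 42 genes, with the fitted peak in hours from lights on against the log2 amplitude of the 24 h curve and its SE. Filled points have an unadjusted p under 0.05; 36 genes peak within 6 h after lights on, and Pttg1 and Tpx2 stand apart more than 6 h before lights on.

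Further probe sets of the same genes gave a partial check, as they were measured on the same arrays. There were 56 more sets for 31 genes, and 47 of them were higher at 8am, with a median of 0.68. Of the 36 at or above the signal filter, 32 were higher. By the strongest set 44.4% of all genes were higher, and the share over all further sets was not computed. Sets of several genes disagreed. At or above the filter a further set gave 0.03 for Cenpa, 0.11 for Cenpf, -0.03 for Nusap1 and -0.00 for Kif2c. For Ttk and Spc25 a further set there gave 0.06 and 0.14. The remaining sets of Kif2c gave 0.76 and 0.75. Below the filter, a further set gave 0.16 for Bub1, 0.03 for Aurka and -0.15 for Bub1b. A set there also gave -0.19 for Anln, -0.33 for Top2a, -0.16 for Incenp and -0.28 for Bub3. Others there gave 1.69 for Bub1b, 1.69 for Cenpa and 1.97 for Cenpf. The sets of Tpx2 disagreed as well. The next strongest set gave 0.05, but the third gave 0.66, with signals of 392, 259 and 586 at 8am and of 245, 251 and 231 at 8pm, and the fourth gave 1.69, with 273, 261 and 296 at 8am and 92.9, 73.0 and 60.2 at 8pm. Both lower sets separated the groups, which the set chosen by its signal did not. For Pttg1 the other two sets gave -0.09 and -0.08, so that none of its sets differed by more than 0.15, and their mean differed by -0.0066.

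Other genes of mitosis, listed separately, had a smaller median difference in the same direction. Of 83 genes 68 were tested, and 61 were higher at 8am than at 8pm (44.4% of all genes), with a median of 0.51 and a range of -0.46 to 2.34. At an unadjusted p under 0.05 in limma 25 were higher and none lower, against 1.17% of all genes higher and 2.88% in either direction. The lowest p was that of Psrc1, a microtubule protein of the spindle, with signals of 322, 227 and 304 at 8am and of 68.7, 44.8 and 23.5 at 8pm (log2 2.34 ± 0.42, adjusted p = 0.128). It was followed by the chromosome motor Kif22 (1.38 ± 0.29), the spindle proteins Ckap2 (1.09 ± 0.23) and Aspm (1.19 ± 0.28), Shcbp1 (1.30 ± 0.30), which binds the central spindle, and Cdca2 (1.05 ± 0.25), a targeting subunit of a phosphatase on chromosomes. At the other end, the kinetochore genes Zw10, Nsl1 and Zwint differed by 0.03, -0.01 and -0.00.

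Lists of neighbouring processes had medians nearer to 0. Of all genes 44.4% were higher at 8am than at 8pm, and 2.88% had an unadjusted p under 0.05 in limma. Of the 17 genes of the anaphase-promoting complex and its partners 12 were higher at 8am, with a median of 0.12 and none at an unadjusted p under 0.05 in limma. The lowest p there were those of Fbxo5, its inhibitor (0.67 ± 0.32), and of the subunit Cdc23 (0.48 ± 0.30). Of 12 cohesin genes 9 were higher, with a median of 0.15, and 1 had an unadjusted p under 0.05. That was Esco2, which acetylates cohesin, with signals of 138, 214 and 192 at 8am and of 51.6, 63.0 and 149 at 8pm (1.02 ± 0.34), while Stag1, a cohesin subunit, differed by 0.45. Of 16 regulators of mitotic transcription 12 were higher, with a median of 0.09 and none at an unadjusted p under 0.05. Among them Nfya, a subunit of NF-Y, differed by 0.49 ± 0.32, and Rbl2, a pocket protein of the repressor complex at TTTGAA sites, by 0.63 ± 0.45.

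DNA replication genes, which act in the S phase that precedes mitosis, went both ways between 8am and 8pm, and their count turned on 1 array. Of 43 genes 38 were tested, 15 were higher at 8am (44.4% of all genes), and the median was -0.05. Without 8pm c, an alternative chosen after seeing the data, 28 were higher and the median was 0.18. Ung, a DNA repair glycosylase, had signals of 374, 473 and 275 at 8am, against 680 (8pm a), 432 (8pm b) and 901 (8pm c), a difference of -0.79 ± 0.26 (adjusted p = 0.842 in limma). Gins2, a subunit of the replicative helicase, had signals of 497, 508 and 294 at 8am, against 81.1, 86.4 and 606 at 8pm (1.25 ± 0.52). Both genes were high in 8pm c. The mean over the replication genes was 9.002, 9.39 and 9.11 at 8am, against 8.99, 8.89 and 9.75 in 8pm a, b and c, so that all 3 arrays at 8am lay above 8pm a and b and below 8pm c, while the mean over the 42 mitosis genes was 8.79 in 8pm c, against 8.76 and 8.56.

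Markers of other cell types were set beside the difference between 8am and 8pm. The summed signal of 9 colon epithelium markers was 112366 to 128713 at 8am and 114613 to 131519 at 8pm, with a median difference of -0.01. The 8 measured crypt base markers of 9 listed summed to 5745 to 6036 at 8am and 4875 to 5472 at 8pm, without overlap, with a median difference of 0.23. The 8 measured B cell and germinal centre markers of 10 summed to 1066 to 2900 at 8am and 1624 to 3034 at 8pm, and their highest 8am value was that of 8am b, the array with the lowest mitosis mean at 8am. Their median difference was -0.54, with 2 of 8 higher at 8am (44.4% of all genes). The 6 measured T cell markers of 7 summed to 584 to 643 at 8am and 812 to 861 at 8pm, also without overlap, and 5 of the 6 lay below the signal filter. The 1 tested T cell marker differed by -0.39. Smooth muscle markers, 8 of 8, summed to 47186 to 76815 at 8am and 46731 to 61136 at 8pm, and squamous epithelium markers, 8 of 8, to 830.1 to 1032 at 8am and 913 to 1505 at 8pm, with 4 of the 8 below the filter. The median difference was 0.19 for smooth muscle, with 8 of 8 higher at 8am. For the 4 tested squamous markers it was -0.25, with 1 higher. The lowest signal in any array was 8.79 for a T cell marker and 7.72 for a squamous marker. As there are no detection calls, whether markers of such low signal were detected is unknown. The part of cell composition in the difference was not tested.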

How the data were processed

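RNA of distal colon from mice was measured at 6 collection times with 3 Affymetrix MOE 430 2.0 arrays each. The deposited values are intensity signals on a linear scale, made by the authors with GCOS, per the submitters' processing notes, which give no version. In the files, the mean of each array without its lowest and highest 2% of probe sets was 500.00. The table holds no detection calls, so the depth of a signal is unknown and the number of arrays limits the precision.

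From the deposited table, log2(signal + 16) was computed without further scaling. Of 45101 probe sets, 34945 had 1 gene symbol in the platform annotation. Probe sets whose mean reached the 40th percentile (7.10) were kept, and each of 12870 genes was represented by its set with the highest mean. limma 3.58.1 in R 4.3.3, with a trend in its moderation, fitted a 24 h cosine (15 residual degrees of freedom) and 6 time means (12) over all 18 arrays. All tests are two-sided, with a threshold of 0.05 and Benjamini-Hochberg adjustment over all genes. Both fits were tested on simulated data. Tables and plots were made in Python 3.11.15 with pandas 2.3.3 and matplotlib 3.10.9. The genes, lists and tests were chosen with earlier results of these data known. Per role, values in every array are given for the 2 genes with the lowest p at 8am minus 8pm and overall for the 3 with the highest. Of the other mitosis genes, the 6 with the lowest and the 3 with the highest p are named, and of each other pathway list the 2 with the lowest. Genes named beyond this, in other comparisons and with further values, were chosen after their values were seen. Alternatives changed the constant, normalization, filter, probe set rule, moderation, array weights, replicate block and arrays used.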

Additional observations from a re-analysis of the deposited data

How the results depend on the processing

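At 8am minus 8pm the count of 37 genes at an unadjusted p under 0.05 was 29 to 39 over all alternatives (1.69% to 16.1% of all genes), and the median difference 0.91 to 1.23. With array quality weights the counts past adjustment, each with the share of all genes in that fit, were 6 for the 24 h curve (0.932%), 35 at 8am minus 8pm (2.22%), 5 at 12pm minus 12am (3.36%), 5 at 4pm minus 4am (25.4%), 24 for light minus dark (15.1%), 20 for 8am minus 8pm against 4pm minus 4am (21.5%) and 41 for any time (69.7%). The count at an unadjusted p was then 10 at 4pm minus 4am (37.4%). Without the 3 arrays of highest Gapdh ratio 8 genes passed at 8am minus 8pm (0.14% of all genes) and the count at 4pm minus 4am was 1 (6.26%). Using the mean over probe sets, 5 genes were counted at 12pm minus 12am (8.73%), and Pttg1 at 8am minus 8pm turned to -0.0066. Quantile normalization moved the median of all genes at 4pm minus 4am to 0.02, against 0.12 as deposited. The cause of these shifts was not tested. Leaving out 1 array gave ranges of 16 to 28 genes for the 24 h curve (2.86% to 6.7% of all genes), 2 to 9 at 12pm minus 12am (4.98% to 10.7%) and 3 to 17 at 4pm minus 4am (11.8% to 43%). Counts past adjustment were 0 to 1 at 8am minus 8pm, 0 to 9 at 4pm minus 4am, 0 to 7 for light minus dark, 0 to 18 for 8am minus 8pm against 4pm minus 4am and 5 to 33 for any time, each highest without 4am c, where 0.0233%, 31.7%, 7.35%, 16.6% and 53.8% of all genes passed in these 5 tests. No pairing of the arrays by the letters a to c was seen. Deviations of same-letter arrays correlated at -0.49 to 0.30 (mean -0.01), against -0.58 to 0.63 (mean 0.006) for different letters. With a replicate block, 3 genes were counted at 4pm minus 4am (19.8% of all genes) and 15 for any time after adjustment (13.8%). None of the 19 genes with full values at 8am minus 8pm passed adjustment as reported, and in 513 refits of them 23 passed and 1 reversed direction. These passes came from few settings. Of the 42 genes, 35 passed with array quality weights (2.22% of all genes) and 8 without the 3 arrays of highest Gapdh ratio (0.14%). Without 4am c 1 passed (0.0233%), and in every other setting none did.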
